A study of Mus musculus with 96 samples.

Results

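Footprints at the 2 ends of the coding sequence were compared between mutant and wild-type mouse neural tubes. For each gene, the edge is the first 15 and the last 5 codons of the coding sequence, and the body is the remainder. The quantity followed throughout is the edge to body ratio, given as edge counts per 100 body counts. It was taken in 3 mutant and 3 wild-type footprint libraries, the sums of 44 of the 48 footprint lane samples among 96 samples in all. The other 4 footprint lanes, of mutant pool 1 in the first run, are truncated and were left out. The same ratio in 48 RNA lane samples, which make 3 mutant and 3 wild-type RNA libraries, served as the control.

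The mutant group carried the Xs-J allele of Eif3c over a wild-type copy on the C3HeB background (labelled C3HeB/Eif3cXs-J/+), and the wild-type group was C3HeB. Both were embryos at stage E11.5. Each pool held dissociated neural tube cells of 1 litter, divided into 2 tubes, one for RNA and one for footprints. No source used here says whether the 3 pools of a genotype are separate litters, or what the number shared by a mutant and a wild-type pool stands for. The p-values therefore measure the spread between these pools. Neural tubes were dissociated whole, so no cell type is set apart.

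Eif3c encodes a core subunit of eIF3, the multi-subunit complex that binds the small ribosomal subunit, helps it load onto mRNA and takes part in start codon selection. Work in yeast and human cells has shown that eIF3 can stay on ribosomes during the first rounds of elongation and also acts at termination. Footprints near the start codon come from ribosomes that have just initiated, and in lysates made with cycloheximide, as here, this region is commonly crowded. The edge as counted here joins both ends, so the start and the stop region cannot be told apart.

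Body counts came to 11.3, 12.1 and 14.8 M in mutant footprint pools 1, 2 and 3, against 59.2, 17.3 and 32.8 M in wild-type pools. These depths do not overlap, so depth and genotype cannot be told apart. RNA body counts lay between 7.20 and 13.1 M per library. Body counts of Eif3c itself were 399, 358 and 383 CPM (per 1 M body footprints) in mutants, against 757, 737 and 739 in wild type, and 300.2, 289 and 300.6 CPM in mutant RNA, against 516, 492 and 473 in wild type. The lower level of the mutated gene goes with the genotype labels in all 12 libraries. Neural tube markers such as Sox2 and Pax6 summed to 5596 to 5884 CPM in mutant RNA, against 6032 to 6213 in wild-type RNA, and none of the 20 was at 0 in all RNA libraries. Erythroid markers (12 genes) summed to 6594, 3430 and 2859 CPM in mutant RNA pools 1, 2 and 3, against 2745 to 3379 in wild-type RNA, endothelial markers (10 genes) to 643, 379 and 385, against 395 to 445, and mesenchyme markers (12 genes) to 704 to 1044, against 597 to 1016. In footprints the mesenchyme sums were 2051, 1439 and 1329 CPM in mutant pools, against 1148, 1151 and 1327 in wild-type pools, so every mutant pool was above every wild-type pool. Erythroid footprint sums were 14150, 8974 and 8213 CPM in mutants, against 8657 to 9857 in wild type, and endothelial ones 821, 465 and 516, against 493 to 580. Macrophage markers (10 genes) stayed at 45.9 to 65.1 CPM in mutant RNA, against 50.2 to 76.1 in wild type. In such bulk samples, fewer cells of a type and less RNA per cell cannot be told apart, and the part of the higher erythroid and endothelial sums of mutant pool 1, and of the higher mesenchyme footprint sums of mutants, in the results was not tested.

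The share of footprints at the coding sequence ends was higher in each mutant library than in any wild-type library, while the RNA libraries of the genotypes overlapped. Mutant pools 1, 2 and 3 had 9.87, 8.12 and 9.84 edge footprints per 100 body footprints, against 8.07, 8.04 and 7.98 in wild-type pools. Pools 1 and 3 of the mutant stood well above the others, while mutant pool 2 lay just above the highest wild-type pool, so the groups did not overlap. The mean was 9.28 ± 1.00 in mutants and 8.03 ± 0.0486 in wild type (SD, n = 3 each), a geometric mean ratio 15.1% higher in mutants. By an exact two-sided permutation test p was 0.1, the smallest that 3 against 3 libraries allow. RNA had 3.77, 3.44 and 3.57 edge counts per 100 body counts in mutants and 3.58, 3.47 and 3.54 in wild type, a difference of 1.81% with overlapping groups (exact permutation p = 0.7). Dividing the footprint ratio by the RNA ratio of the same cells gave 2.62, 2.36 and 2.75 in mutant pools, against 2.25, 2.32 and 2.25 in wild-type pools, which again did not overlap (13.0% higher, exact permutation p = 0.1).

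**Figure D1:**
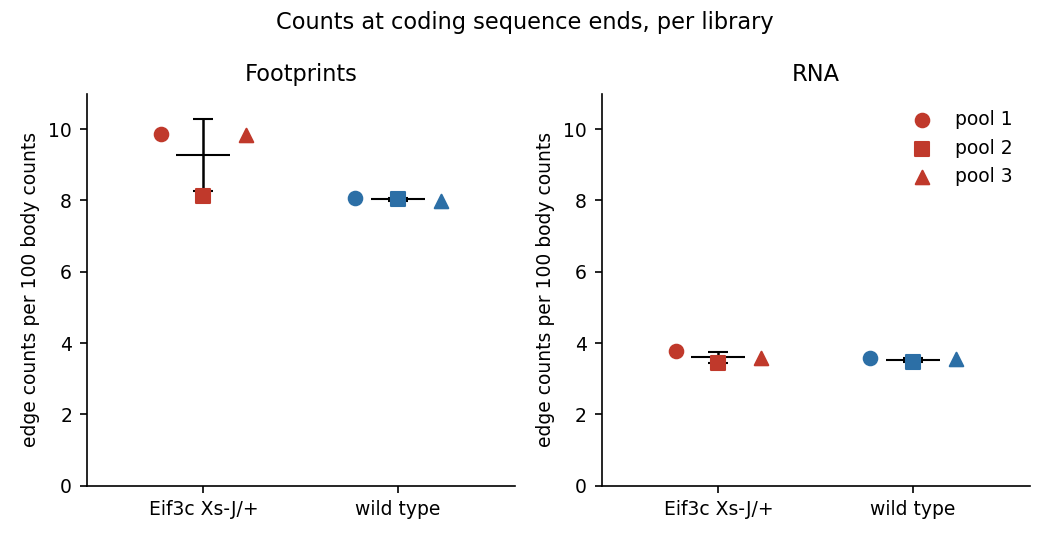
Edge counts per 100 body counts (vertical axis, from 0) in each footprint library (left panel) and RNA library (right panel), mutant left and wild type right in each panel; marker shapes are pools, horizontal bars the mean and whiskers the SD over 3 libraries. Mutant footprint pools 1 and 3 sit at 9.87 and 9.84, mutant pool 2 at 8.12 beside wild-type libraries of 7.98 to 8.07, and the RNA libraries lie between 3.44 and 3.77.

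The library difference was smaller on a summed scale that held gene composition fixed. With each gene's ratio held at its wild-type mean, the expected edge count followed from the body counts alone, and observed over expected was 1.15, 0.949 and 1.07 in mutants, against 0.983, 0.990 and 1.01 in wild type. On that scale the mutant excess was 5.74%, mutant pool 2 fell below every wild-type pool, and the exact permutation p was 0.4. That sum weights genes by their counts. With equal weight, the median log2 ratio of 8713 tested genes minus the wild-type mean was 0.29, 0.01 and 0.19 in mutant pools 1, 2 and 3. Wild-type pools had -0.01, 0.04 and -0.01, so mutant pool 2 lay within their range. The 5' leader showed the same order of groups as the library ratio above, but the 2 are not separate measures. Reads that touch both the leader and the coding sequence were counted in both, so the leader and the edge share reads. Mutant pools held 20.0, 16.5 and 19.4 leader footprints per 100 body footprints, against 16.2, 16.2 and 16.1 in wild type. Reads counted in 2 parts of a transcript came to 7.84, 6.86 and 8.11 per 100 body footprints in mutants, against 6.80, 7.05 and 6.64 in wild type. In the 3' untranslated region mutant pool 2 was apart, with 3.63 per 100 body footprints, against 1.88 and 2.17 in mutant pools 1 and 3 and 1.88 to 1.98 in wild type.

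Gene by gene, the footprint ratio was tested with edgeR's quasi-likelihood test on the edge and body counts of each library, scaled so that the typical gene does not change. Of 8713 genes tested, 546 (6.27%) had a higher ratio in mutants and 244 (2.80%) a lower one at a Benjamini-Hochberg adjusted p under 0.05. Calls were at least 0.50 in size on the log2 scale, with a median of 0.89 for higher and -0.77 for lower ones. Without the scaling, when edge and body columns share 1 offset per library, the median gene rose by 0.15 (log2) and the split became 844 higher and 49 lower. Other alternatives gave a more even split, with 476 higher and 437 lower without mutant pool 2, 429 and 368 with all lanes, 345 and 273 with the second run alone, 413 and 317 with complete and unshared ends, and 466 and 332 with the longest coding sequence of each gene. The 3 mutant ratios lay above all 3 wild-type ratios in 1895 genes (21.7%) and below them in 542 (6.22%), and this was true of 530 of the higher and 200 of the lower calls. All 790 called genes that could be tested again kept their direction under each of the 19 alternatives tried. These refit the libraries that chose the genes, or a part of them, so the kept direction is a description. The number of calls rests on the deepest library, since leaving out wild-type pool 1 left 99 calls (88 higher, 11 lower), all 99 of them among the 790. Leaving out wild-type pool 3 gave 354 calls and leaving out mutant pool 3 gave 505.

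In the higher genes the edge differed more than the body. Across those 546 genes the edge CPM were a median 2.03 times the wild-type value, and the body CPM 0.993 times. In the 244 lower genes, the medians were 0.720 for the edge and 1.09 for the body. The summed ratio of the higher genes was 10.6, 9.10 and 10.4 edge footprints per 100 body footprints in mutant pools, against 4.72, 5.66 and 5.06 in wild type. These ratios chose the genes and are given as a description. Among wild-type libraries, pool 1, the deepest, had the lowest ratio in 319 of the 546 higher genes, and pool 2, the shallowest and nearest to mutant depth, the highest in 357. Over all 8713 genes these counts were 2983 and 3710.

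**Figure D2:**
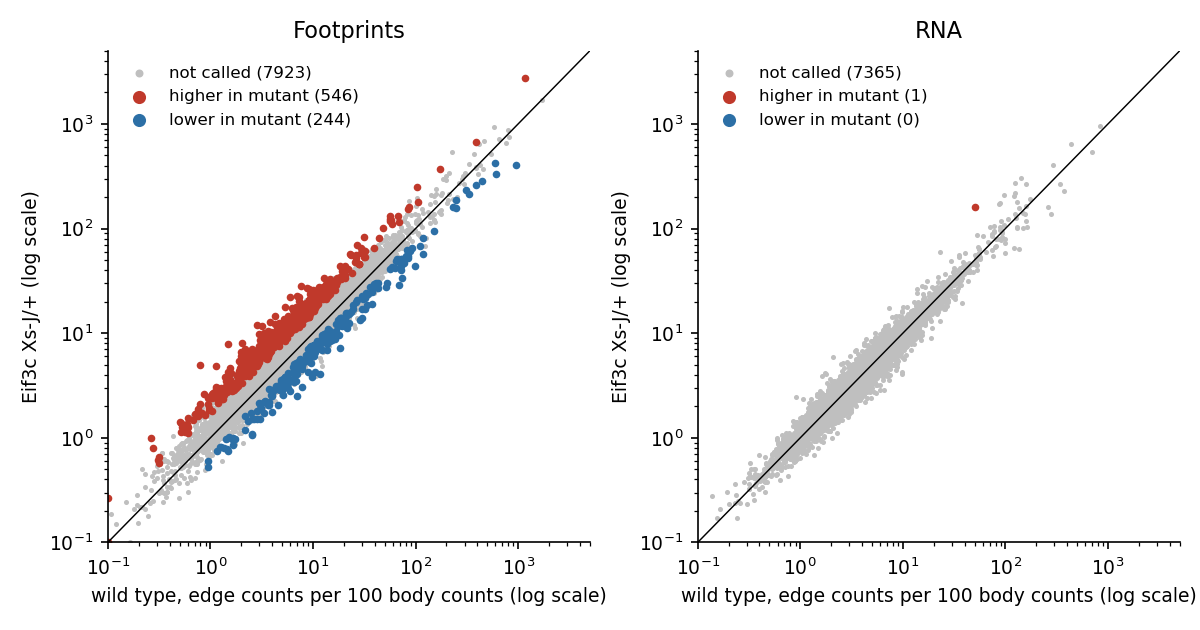
Mean edge counts per 100 body counts of each gene in mutants (vertical) against wild type (horizontal), both on log scales with values under 0.1 drawn at 0.1, for footprints (left panel) and RNA (right panel); red points are called higher and blue points lower in mutants at an adjusted p under 0.05, grey points not called, and the line marks equality. Footprints show 546 red and 244 blue points on both sides of the line, and RNA shows 1 red point.

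RNA at the same windows gave almost no call. Of 7366 genes tested, 1 was higher (0.0136%) and 0 (0%) were lower by edgeR's quasi-likelihood test, with 314 at an unadjusted p under 0.05. DESeq2 and limma-voom called 0. Edge counts per library were lower in RNA, with a median of 25.2 over tested genes against 71.7 in footprints. The lack of RNA calls therefore does not show that each RNA ratio was unchanged. Among the 546 genes with higher footprint ratios, 471 could be tested in RNA, where their median change was -0.02 (log2), and for the 244 lower genes it was 0.02 in 209.

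The genes described next are from the 10 largest rises and 10 largest falls with at least 50 edge footprints per library on average and groups that do not overlap. Their first 45 coding bases are the larger part of the edge, and they are shown because starts of rising and falling genes differed in composition. The second codon is in capitals. Coordinates are those of the start codon in GENCODE vM21 (mm10), in exon 1 of the transcript except for Hspa8, Strada, Akap13 and Rere, in which it lies in exon 2. Xbp1 starts at chr11:5520995-5520997 (+), Cdc34 at chr10:79682414-79682416 (+), Tmem131l at chr3:84040098-84040100 (-), Baz1b at chr5:135187650-135187652 (+) and Hspa8 at chr9:40801923-40801925 (+). Of the falling genes, Strada starts at chr11:106187134-106187136 (-), Gadd45a at chr6:67037242-67037244 (-), Akap13 at chr7:75534819-75534821 (+), Rere at chr4:150406340-150406342 (+) and Hnrnpa3 at chr2:75659318-75659320 (+). The first 5 below rose and the last 5 fell. Hnrnpa3 is shown as a fall with a GC-rich start, although its ratio was unusually high in both assays, as given below.
Xbp1: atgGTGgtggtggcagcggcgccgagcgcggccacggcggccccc
Cdc34: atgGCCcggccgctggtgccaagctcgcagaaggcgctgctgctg
Tmem131l: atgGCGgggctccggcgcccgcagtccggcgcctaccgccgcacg
Baz1b: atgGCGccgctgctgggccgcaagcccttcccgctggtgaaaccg
Hspa8: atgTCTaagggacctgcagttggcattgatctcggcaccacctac
Strada: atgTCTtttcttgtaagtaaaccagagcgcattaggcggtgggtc
Gadd45a: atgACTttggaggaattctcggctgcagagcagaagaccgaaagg
Akap13: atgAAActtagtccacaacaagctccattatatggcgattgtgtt
Rere: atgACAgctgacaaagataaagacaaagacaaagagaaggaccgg
Hnrnpa3: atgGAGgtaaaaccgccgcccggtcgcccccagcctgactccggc
G and C make up 82.2% of the shown bases of Xbp1 and of Tmem131l, 71.1% in Cdc34 and Baz1b and 53.3% in Hspa8, against 51.1% in Gadd45a, 46.7% in Strada, 42.2% in Rere, 37.8% in Akap13 and 71.1% in Hnrnpa3. The leading genes thus did not all follow the composition. Of the falls not shown, Hist2h3b had 68.9% and Hist1h4i 60%, and of the rises mt-Cytb had 24.4%.

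Hspa8, the constitutive cytosolic Hsp70 chaperone, had the call with the smallest p. It held 12.2, 11.4 and 11.6 edge footprints per 100 body footprints in mutant pools, against 2.18, 3.91 and 3.45 in wild type. The 3 mutant pools were close together and all above the wild-type pools (log2 change 1.79 ± 0.18 SE, edgeR adjusted p = 1.17e-05). Its RNA ratio was 25.9, 21.8 and 26.3 in mutants and 25.1, 24.7 and 25.4 in wild type, with overlapping groups. Hspa8 has processed copies in the genome, and reads that fit several places may be lost unevenly along it.

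Xbp1, the transcription factor of the unfolded protein response, had the largest rise of these genes. Its ratio was 7.20, 8.62 and 8.11 in mutants, against 1.87, 2.28 and 2.02 in wild type (log2 change 1.84 ± 0.22 SE, edgeR adjusted p = 5.14e-05), on 45, 61 and 82 edge footprints in mutants and 54, 21 and 41 in wild type. Its RNA ratio went the other way without passing the test, at 3.45, 1.61 and 5.58 in mutants and 6.84, 6.27 and 6.09 in wild type (edgeR adjusted p = 0.824). Cdc34, a ubiquitin-conjugating enzyme, had 31.8, 29.2 and 23.3 in mutants, against 5.61, 9.19 and 7.93 in wild type (log2 change 1.79 ± 0.20 SE, adjusted p = 3.66e-05). In these genes mutant pool 2 was as high as the other mutant pools.

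Tmem131l, a transmembrane protein, had 3.92, 4.54 and 4.29 edge footprints per 100 body footprints in mutants, against 1.52, 1.79 and 1.13 in wild type. Baz1b, a bromodomain subunit of chromatin-remodelling complexes, had 1.39, 1.41 and 1.41, against 0.368, 0.522 and 0.630 in wild type. Sppl2a, an intramembrane protease, had 11.1, 6.83 and 8.51 in mutants, against 2.59, 4.54 and 2.49 in wild type. Med11, a Mediator subunit, and Tmem9b, a lysosomal membrane protein, rose by 1.29 ± 0.22 and 1.37 ± 0.27 log2 units (SE). The call of Tmem9b was lost without wild-type pool 1. The mitochondrially encoded cytochrome b gene mt-Cytb differed from these nuclear genes. Its ratio was 16.3, 47.8 and 17.6 in mutants, against 7.11, 10.4 and 8.86 in wild type, with mutant pool 2 far above the others, and its body footprint CPM were 0.499 times the wild-type level. Its call was lost by DESeq2 and without wild-type pool 1. Mitochondrial ribosomes are not blocked by cycloheximide. Mitochondria were spun out of these lysates, yet mt-Cytb body footprints remained, at 580 CPM in mutants and 1163 in wild type. What part these steps have in the mt-Cytb ratio was not tested.

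Among the falls, 3 of the 10 leading genes were hard to assign because their starts or whole sequences have near copies. Hist2h3b, a replication-dependent histone H3 gene, had 453, 294 and 459 edge footprints per 100 body footprints in mutants, against 845, 1072 and 933 in wild type (log2 change -1.41 ± 0.16 SE, edgeR adjusted p = 4e-05). There the body differed and the edge hardly did, at 2.51 and 1.09 times the wild-type CPM. Hist1h4i, a histone H4 gene, had 50.3, 59.0 and 63.7 in mutants, against 117, 104 and 135 in wild type. Psmg3, a proteasome assembly chaperone whose first 45 coding bases recur in another annotated gene, had 15.4, 16.3 and 19.8, against 33.0, 27.5 and 35.9 in wild type. In each of these genes every mutant pool was below every wild-type pool.

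Gadd45a, a growth arrest and DNA damage response gene, fell with no such overlap of sequence. Its ratio was 13.9, 14.4 and 13.3 in mutants, against 32.1, 28.7 and 28.6 in wild type (log2 change -1.28 ± 0.22 SE, edgeR adjusted p = 0.00158), on 34, 25 and 30 edge footprints in mutants. Strada, the pseudokinase partner of the kinase LKB1, had 2.96, 2.94 and 2.46 in mutants, against 6.74, 5.80 and 5.44 in wild type, on 15, 16 and 16 edge footprints in mutants. Rere, a transcriptional corepressor, averaged 0.781 ± 0.202 in mutants and 1.45 ± 0.166 in wild type (SD, n = 3 each). Mutant counts at these edges were small, and Strada and Rere lost their calls without wild-type pool 1. Sat1, a polyamine acetyltransferase, Khsrp and Hnrnpa3, both RNA-binding proteins, and Akap13, an anchoring protein of protein kinase A, complete the 10 falls, at log2 changes of -1.28, -1.17, -1.06 and -1.06. In these 4 genes mutant pool 2 had the lowest ratio of the 6 libraries, and all 4 calls were lost without wild-type pool 1.

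**Figure D3:**
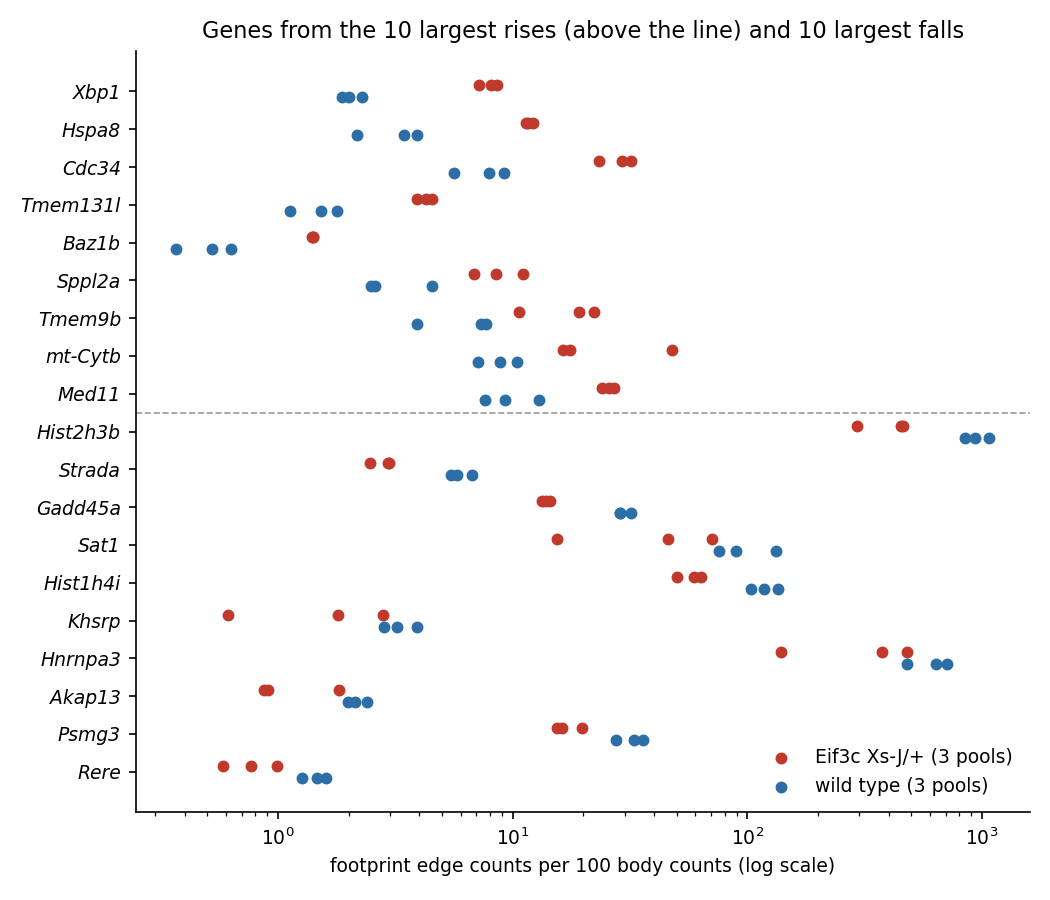
Footprint edge counts per 100 body counts (horizontal, log scale) of genes from the 10 largest rises (above the dashed line) and 10 largest falls, one row per gene, with the 3 mutant libraries in red above the 3 wild-type libraries in blue. Mutant and wild-type points do not overlap in any row, as the choice of genes requires, and Hspa8 shows 11.4 to 12.2 in mutants beside 2.18 to 3.91 in wild type.

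The footprint change was then set against the RNA change in 1 fit over all 12 libraries, which tests the difference between the assays itself. Of 6556 genes with enough counts in both, 92 (1.40%) had a higher and 41 (0.625%) a lower ratio in mutant footprints beyond RNA. With 1 shared offset per library the split was 182 and 5. Since both tubes of a pool held the same cells, a fit with a term for each pool as a block, chosen after seeing the data, was made too, and it gave 202 calls (127 higher, 75 lower). Of the footprint calls that entered the fit without that block, 86 of 471 higher genes and 37 of 209 lower genes passed, and 470 of the 471 and all 209 had the same direction. The footprint counts that chose these genes are part of that fit, so the shared direction is a description. Leaving out wild-type pool 1 left 3 calls, wild-type pool 3 left 8, mutant pool 3 left 43, wild-type pool 2 left 56 and mutant pool 2 left 73.

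Hspa8, Xbp1 and Cdc34 led here too, at 1.78 ± 0.22, 2.63 ± 0.38 and 2.12 ± 0.30 log2 units beyond RNA (SE, edgeR adjusted p = 1.18e-06, 3e-05 and 2.61e-05), and these 3 passed in every alternative in which they were tested. Other rises beyond RNA were Vps52, a tethering protein of retrograde traffic (1.79 ± 0.42 SE), Dhx8, a splicing helicase (1.64 ± 0.36 SE), Rnf34, a ubiquitin ligase (1.58 ± 0.33 SE), and the mitochondrial proteins Letmd1 and Hsd17b10 (1.53 ± 0.39 and 1.52 ± 0.30 SE). For Hsd17b10 the footprint ratios were 13.2, 10.6 and 12.4 in mutants, against 3.68, 6.14 and 4.84 in wild type. Falls beyond RNA were led by Selenop, the plasma selenium carrier (-1.95 ± 0.52 SE), whose footprint ratio of 22.6, 5.79 and 9.08 in mutants overlapped the 24.9, 15.1 and 22.1 of wild type. Strada, Nfe2l1, a stress-response transcription factor, Scaf1, Pick1, Phf5a, a splicing factor subunit, Ppp1r18, Cggbp1, Igf2bp2, an mRNA-binding protein, and the histone gene Hist1h3c were the others, at -1.62 to -1.16. Each of these falls lost its call in some alternatives, from 5 of 20 for Igf2bp2 to 14 of 18 for Pick1. The rises from Vps52 to Hsd17b10 lost theirs in 3 of 19 (Hsd17b10) to 6 of 18 (Letmd1). Ccnd2, the cyclin D2 gene, passed at 0.93 ± 0.26 SE beyond RNA (edgeR adjusted p = 0.0464), and lost that call in 14 of 20 alternatives.

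Eif3c itself showed no called change at the edge. Its ratio was 6.16, 4.64 and 5.27 in mutants and 5.86, 5.09 and 5.22 in wild type, with overlapping groups (log2 change -0.17 ± 0.15 SE, edgeR adjusted p = 0.544). The Hedgehog effectors Gli2 and Gli3, the receptor component Smo and the ligand Shh had footprint log2 changes of -0.35, 0.08, 0.53 and 0.10 and did not pass. Ptch1 and Gli1 had too few edge footprints to test. Atf4, whose translation is set by upstream reading frames, had 76.3, 38.6 and 82.9 edge footprints per 100 body footprints in mutants, against 82.2, 85.0 and 100.5 in wild type (-0.62 ± 0.21 SE, adjusted p = 0.0625). Lxn, a carboxypeptidase inhibitor, and Igfbp5, an IGF-binding protein, had log2 changes of -0.49 and -0.09 and did not pass, and Hist1h2bp, a histone H2B gene, fell by 0.67 ± 0.17 SE (edgeR adjusted p = 0.0176). Its ratio was 497, 332 and 434 in mutants, against 642, 487 and 665 in wild type, with overlapping groups, and its call was lost with 1 shared offset per library and without wild-type pool 1 or wild-type pool 3.

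The base composition of the coding start went with the direction of change in footprints and not in RNA. Genes were put into 5 groups of equal size by the GC content of their first 45 coding bases, which was known for 8310 of the 8713 genes and uses no count. Higher calls numbered 28, 50, 91, 139 and 211 from the lowest to the highest group of 1662 genes each, and lower calls 83, 64, 42, 29 and 14. The median log2 change ran -0.20, -0.09, -0.01, 0.10 and 0.22 over these groups, against 0.01, -0.01, 0.01, -0.01 and -0.00 in RNA. With 1 shared offset per library the footprint medians were -0.05, 0.06, 0.15, 0.25 and 0.37, so the order stayed and all but the lowest group were above 0. Across genes, the GC content of the start correlated with the footprint change at Pearson's r = 0.35 and with the RNA change at -0.01 (8310 and 6233 genes of the same libraries, a description). For the GC content of the body r was -0.12 in footprints, and for the last 15 bases -0.05.

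The libraries did not share this pattern equally. In the highest GC group, the median ratio relative to the wild-type mean was 0.60, 0.08 and 0.45 log2 units in mutant pools 1, 2 and 3, against -0.05, 0.07 and 0.00 in wild-type pools. Mutant pools 1 and 3 thus stood apart, and mutant pool 2 was level with wild-type pool 2. In the lowest group the values were -0.08, -0.04 and -0.00 in mutants and 0.02, 0.01 and -0.02 in wild type, so the 6 libraries were together. The wild-type pools lay in the inverse order of their depth in the highest group. With every library thinned to equal depth the medians of the lowest and highest group were -0.25 and 0.17, and offsets for GC content in the edge columns, chosen after seeing the data, gave 427 higher and 225 lower calls.

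**Figure D4:**
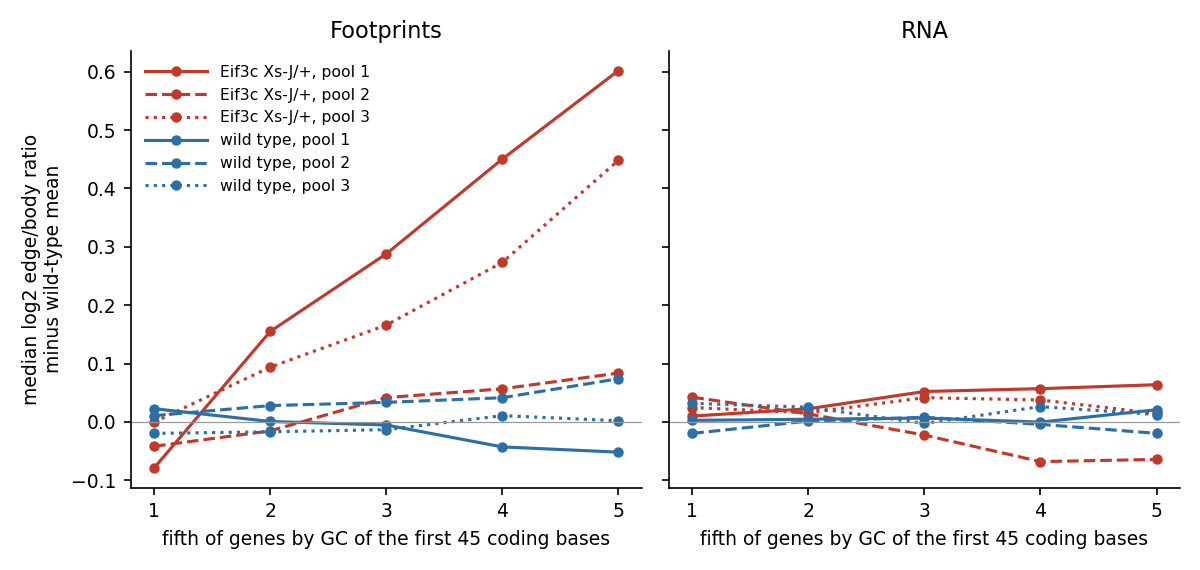
Median log2 edge to body ratio minus the mean of the 3 wild-type libraries (vertical) for 5 groups of genes by GC content of the first 45 coding bases (horizontal, lowest to highest), in footprints (left panel) and RNA (right panel), with 1 line per library. Mutant footprint pools 1 and 3 climb to 0.60 and 0.45 in the highest group, mutant pool 2 reaches 0.08 beside 0.07 in wild-type pool 2, and RNA libraries stay near 0.

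The second codon set genes apart as well. It began with G in 387 of 516 higher genes with a known ATG start, in 87 of 231 lower genes (37.7%) and in 4553 of 8272 of all tested (55.0%). Alanine codons (GCN) were second in 48.8% of higher and 17.7% of lower genes, against 29.7% of all. The 4 alanine codons differed, with 15.0% of GCG genes called higher. For GCC, GCT and GCA the shares were 6.21%, 6.25% and 5.44%, not above the 6.27% of all genes. Of the 43 second codons held by at least 50 tested genes, GTG had the highest median change (0.35 log2 units, 37 higher and 2 lower of 173 genes), followed by GCG (0.21, 173 higher and 4 lower of 1153) and TGG (0.19, 11 higher and 2 lower of 81). ACT had the lowest (-0.28, 0 higher and 11 lower of 91). For GTG, the valine codon seen in Xbp1, the shift from the wild-type mean was 0.61, 0.32 and 0.45 in mutant pools 1, 2 and 3, against -0.07, 0.16 and -0.05 in wild-type pools, so all 3 mutant pools were above all 3 wild-type pools. Its genes had a median start GC of 57.8%, below the 60% of all tested genes.

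A G at the start of the second codon went with a higher median change, mutant over wild type, within each GC group. The median log2 changes for genes with G and for genes with another base were -0.16 and -0.23 in the lowest group, -0.05 and -0.12, 0.06 and -0.09, 0.16 and 0.00 in the middle 3, and 0.28 and 0.15 in the highest. Codons starting with G were not alike. Over all GC groups GAA had a median of -0.19 (2 higher and 6 lower of 202 genes), and GAC, GAT, GCA and GGA were also below 0. The corresponding RNA medians lay between -0.02 and 0.02. In the highest group, genes with G had shifts of 0.64, 0.14 and 0.51 in mutant pools, against -0.07, 0.09 and 0.00 in wild type. The base 3 before the start codon, the other main position of the Kozak context, made less difference, with medians of 0.03 for G and -0.03 for A.

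Leader length and coding length differed in how they went with the change. Of 5 groups by leader length, that with the shortest annotated 5' leaders had a median of 0.13, with 193 higher and 36 lower calls among 1727, and the group with the longest leaders -0.08, with 56 and 56 among 1726. The median leader was 102 bases in higher genes, 184 in lower genes and 153 in all tested. Coding length went with neither direction. Medians over the 5 length classes, from up to 100 codons to over 1000, lay between -0.02 and 0.00, although the ratio itself fell with length because the edge is a fixed 20 codons. Proteins of up to 100 codons had 55.0, 47.3 and 47.1 edge footprints per 100 body footprints in mutants, against 44.7, 43.6 and 45.6 in wild type, and coding sequences of over 1000 codons 2.42, 2.01 and 2.45, against 2.05, 2.08 and 1.94.

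Gene lists were read against the 6.27% higher and 2.80% lower calls of all genes and their median of -0.00. Of the translation machinery, 12 subunits of eIF3 were tested, and 0 passed in either direction by edgeR's quasi-likelihood test (median -0.05, or 0.10 with 1 shared offset, when 1 rose). Eif3i, a subunit of the complex, came nearest at 8.36, 8.99 and 9.73 in mutants, against 6.48, 6.51 and 4.71 in wild type (adjusted p = 0.0707). Among 29 other initiation factors and regulators, 3 rose and 1 fell. Eif4ebp2, which binds and holds back the cap-binding protein eIF4E, had 56.8, 50.2 and 59.8 in mutants, against 25.4, 29.1 and 23.7 in wild type (log2 change 0.95 ± 0.16 SE, edgeR adjusted p = 0.00145). Eif2a, an alternative initiator-tRNA carrier, rose by 0.79 ± 0.17 SE, and Eif2b1, a subunit of the exchange factor of eIF2, fell by 0.86 ± 0.18 SE. Of 18 elongation and termination factors and their partners, Eef1e1 and Gtpbp1 rose and 0 fell.

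Most mitochondrial ribosomal protein genes had a positive change. Of 72 tested, 10 rose and 0 fell, 57 had a positive change, and the median was 0.22 against 0.02 in RNA. Mrps27 had 7.18, 6.44 and 5.96 in mutants, against 1.78, 3.05 and 2.89 in wild type (log2 change 1.28 ± 0.24 SE, edgeR adjusted p = 0.00256). Summed over the list, mutant pools had 19.7, 19.3 and 18.7 edge footprints per 100 body footprints, against 14.4, 15.6 and 15.0 in wild type, so mutant pool 2 was with the others here. The starts of these genes had a median GC content of 64.4%, against 60% in all genes. The place of mutant pool 2 was not particular to this list. Summed ratios were 10.2 to 10.9 in mutants against 8.63 to 8.96 in wild type for eIF3 subunits. For pan-neuronal genes they were 6.86 to 7.11 against 5.61 to 5.70. In cytosolic ribosomal proteins, by contrast, mutant pool 2 (29.0) lay within the wild-type range of 28.8 to 30.2. Of 68 nuclear-encoded subunits of the respiratory chain and ATP synthase, 13 rose and 2 fell, although their median was 0.03. Atp5k, a subunit of ATP synthase, had 58.3, 56.5 and 52.0 in mutants, against 19.1, 24.8 and 26.9 in wild type, and Ndufa1 and Ndufb8, subunits of complex I, rose by 1.05 ± 0.17 and 1.12 ± 0.18 SE.

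Calls among protein folding genes were mostly higher. Of 21 cytosolic chaperones 5 rose and 0 fell (median 0.19), among them Hspa8, the chaperonin subunit Cct3 and the prefoldin subunit Pfdn4. Cct3 had 6.50, 6.91 and 6.07 in mutants, against 2.26, 3.70 and 2.42 in wild type (log2 change 1.11 ± 0.18 SE, edgeR adjusted p = 0.00111). Of 25 genes of chaperoning and translocation in the endoplasmic reticulum 5 rose and 1 fell (median 0.17). The translocon-associated Ssr2, the signal recognition particle subunit Srp68 and the lectin chaperone Calr rose by 0.96, 0.83 and 0.66 log2 units. Only 21 of 86 cytosolic ribosomal protein genes had enough counts, and of these 1, Rpl4, rose and 1, Rpl7l1, fell.

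Histone and Hox genes held more lower than higher calls, and zinc finger genes about as many of each. Of 51 replication-dependent histone genes tested 12 fell and 4 rose (median -0.20, or -0.06 with 1 shared offset, when 6 fell and 6 rose, so the balance of calls rests on the scaling). Hist1h2bc, a histone H2B gene, was among the risers, at 2873, 2479 and 2892 edge footprints per 100 body footprints in mutants and 719, 1344 and 1459 in wild type, on body counts far below its edge counts. Histone copies share sequence, so their counts cannot be assigned with confidence to 1 gene. Of 28 Hox genes 2 fell and 0 rose, 23 had a negative change, and the median was -0.36 (-0.21 with 1 shared offset). Their starts had a median GC content of 45.6%. Hoxb2 had 0.632, 0.897 and 1.66 in mutants, against 2.28, 2.83 and 2.45 in wild type (log2 change -1.29 ± 0.30 SE, edgeR adjusted p = 0.00924), on 6, 10 and 23 edge footprints in mutants. Hoxb8 fell by 0.99 ± 0.28 SE, with mutant pool 2 inside the wild-type range. Of 204 numbered zinc finger genes 5 rose and 4 fell.

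In the Hedgehog, pan-neuronal, cell cycle, selenoprotein and upstream reading frame lists 1 to 3 genes rose and at most 1 fell. Their shares of higher calls ran from 3.45% (Hedgehog) to 12.5% (selenoproteins), on either side of the 6.27% of all genes. Of 29 Hedgehog pathway genes 1 rose, Prkaca, the catalytic subunit of protein kinase A, averaging 14.5 ± 2.71 in mutants and 7.84 ± 1.00 in wild type (SD, n = 3 each) (log2 change 0.74 ± 0.16 SE, edgeR adjusted p = 0.00597). Of 35 pan-neuronal genes 3 rose, Map1b, Syt1 and Tubb3, and 0 fell, with a median of -0.16. Map1b, a microtubule-associated protein of axons, had 1.26, 1.16 and 0.962 in mutants, against 0.444, 0.695 and 0.409 in wild type (1.02 ± 0.19 SE). Of 43 cell cycle genes Hells and Gins2 rose. Of 16 selenoproteins Gpx3 and Selenof rose and Selenop fell. Of 12 genes with known upstream reading frames, Eprs rose. With 1 shared offset the Hedgehog median moved to 0.08 and the pan-neuronal one to -0.02, so no direction is read from them.

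Marker lists of other cell types held 1 call each at most. Hbb-bt of the erythroid list rose, at 9.18, 28.6 and 6.42 in mutants and 4.18, 2.48 and 6.05 in wild type, with mutant pool 2 apart; its start is shared with another gene. Kdr of the endothelial list rose by 0.91 ± 0.26 SE, and Dcn of the mesenchyme list fell by 0.99 ± 0.24 SE. The macrophage and neural crest lists had 0 calls among 6 genes each, by edgeR's quasi-likelihood test. Lhx5 and Tubb3, both neural, were the calls among 18 neural tube markers. The summed ratio of the erythroid markers was 22.9, 23.8 and 22.9 in mutants and 25.1, 22.9 and 25.98 in wild type, with overlapping groups.

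**Figure D5:**
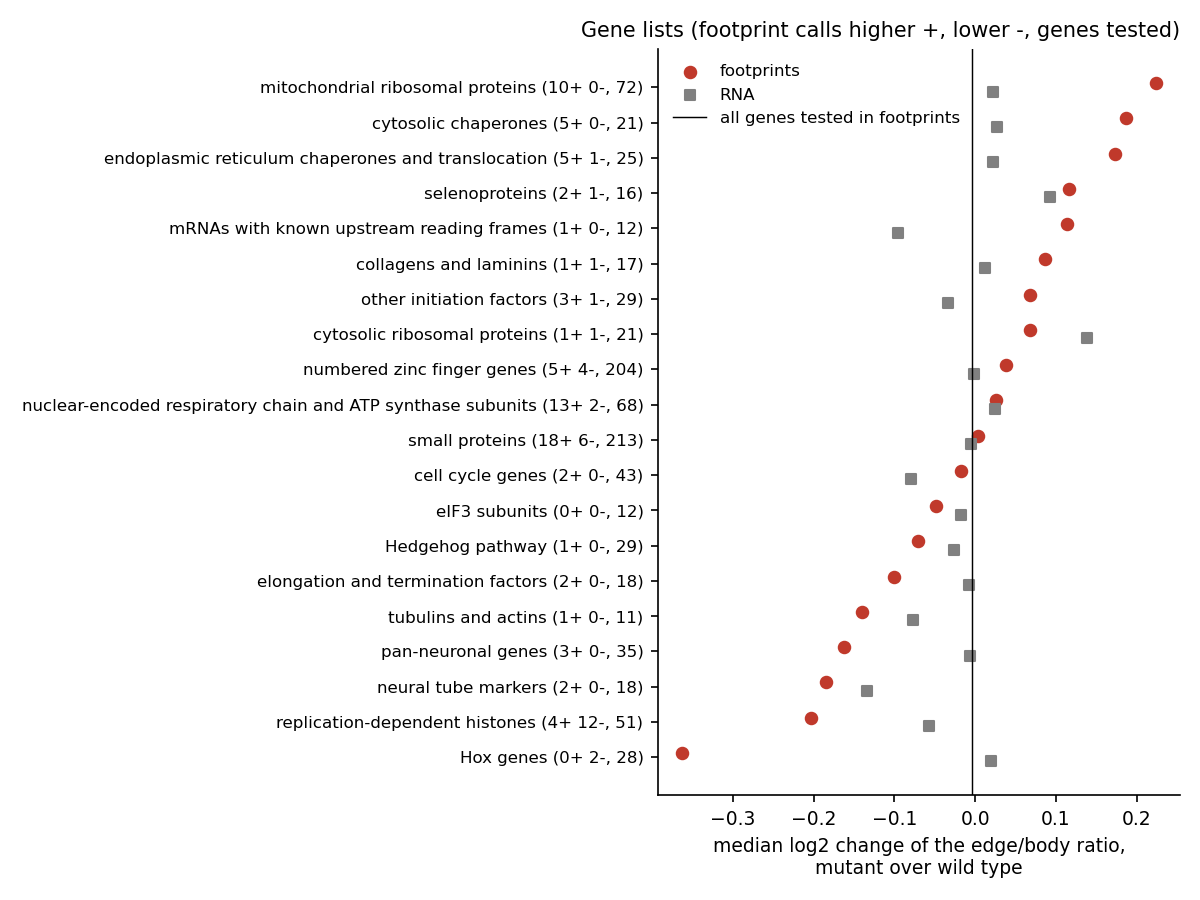
Median log2 change of the edge to body ratio, mutant over wild type (horizontal), of each gene list with at least 10 genes tested in footprints; red circles are footprints, grey squares RNA, and the line is the footprint median of all genes, with called higher, called lower and tested genes in brackets. Mitochondrial ribosomal proteins lie highest at 0.22 and Hox genes lowest at -0.36 in footprints, against 0.02 for each in RNA.

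In wild type, the edge was the densest part of most coding sequences. Per base, the edge held 1.42 times the footprint density of the body in the median gene (quartiles 0.889 and 2.17, 8713 genes), and 70.0% of genes were above 1, while RNA had a median of 0.879 (7366 genes) and 30.3% above 1. Higher genes started from a low edge, with a wild-type median density of 0.842 times the body, and lower genes from a high one, at 2.42 times. Those wild-type counts are part of the comparison that chose the genes, so this is a description. Among 6473 genes with at least 1000 body footprints per wild-type library and 100 codons, Naca had the densest edge, at 195 ± 18.9 times the body in mutants and 114 ± 38.5 in wild type (SD, n = 3 each). The edge of Naca was dense in RNA too, at 40.0 ± 2.72 times the body in mutants and 38.8 ± 1.56 in wild type (SD, n = 3 each). Its footprint values are therefore not read as ribosome density alone. The transcript used for Naca, a subunit of the nascent polypeptide-associated complex, is 2188 codons long and 1 of 2 coding transcripts. The part of that choice was not tested. Adam9, a membrane protease, followed Hist2h3b, at 65.0 ± 18.3 in mutants and 35.5 ± 4.13 in wild type, and 6 further histone genes were among the 10 densest. At the other end, Ywhaz, Zfx, mt-Co1 and mt-Nd4 were listed at 0 in all footprint libraries, Zfp532 in all but mutant pool 2, and mt-Co1 and mt-Nd4 also in all RNA libraries.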

How the data were processed

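Per the labels' protocols, footprints of 28 to 31 bases and RNA fragments of 30 to 50 bases were sequenced from 12 libraries in 2 runs of 4 lanes. Per the submitters' processing notes, cutadapt, STAR and bedtools were used with mm10, without versions. The deposited values are the authors' counts per lane, for whole transcripts and for their parts. The 5' part, coding sequence and 3' part together exceed the whole transcript, so reads that touch 2 parts were counted in both. Minimum overlap, strand and handling of multiple matches: not given in the sources used here. Each trimmed coding count starts 45 bases after the start and ends 15 bases before the end of the coding sequence, which includes the stop codon. The edge is the full minus the trimmed count, so it holds reads that do not touch the body. If an overlap of 1 base was enough, a footprint of 28 bases is counted at the 3' edge only when it starts in the last 15 bases.

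Lanes and runs were summed. The 4 truncated lanes were left out as the rule for this comparison states. Of 64315 coding transcripts with a trimmed count, 64238 were matched to GENCODE vM21, and 1 transcript was used for each of 22422 genes, that with the highest trimmed count (65.7% of genes have several). Sequences are from GENCODE vM21 transcripts.

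Counts were tested in R 4.3.3 with edgeR 4.0.16 (glmQLFit and glmQLFTest) on edge and body columns with 1 term per library, filterByExpr (minimum count 10, minimum total 15) on both, TMM over all columns with p-values adjusted over every gene tested (Benjamini-Hochberg, threshold 0.05). SE is the log2 change over the square root of F. DESeq2 1.42.0 and limma-voom (limma 3.58.1) were alternatives. Library ratios were compared by exact two-sided permutation in SciPy. Each fit was checked on simulated data with 1 dispersion for all genes. Of 100 genes changed by 1 log2 unit, 65% were recovered in footprints, 60% in RNA and 39% beyond RNA. For changes of 0.5 log2 units these shares were 8%, 20% and 2%. Per-gene shifts used log2 ratios with 0.5 added to each count. CPM are per 1 M body counts.

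The genes named are the 10 largest called rises and falls whose groups did not overlap, with 50 or more edge counts on average, genes fixed by name, up to 3 members of smallest p per list, and the 10 densest and 5 least dense wild-type edges; where under 5 passed, 5 of smallest p were taken. Some genes these rules pick are not reported here. Members and lists were chosen with earlier results of these data known. Footprint and RNA libraries of a pool come from the same cells per the labels' protocols. Deviations of equal-numbered pools correlated at -0.03 to 0.02 between genotypes and at -0.00 to 0.08 between the assays of a pool.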

Additional observations from a re-analysis of the deposited data

Results flagged for a closer look

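The 4 truncated lanes of mutant footprint pool 1, which no comparison uses, held 1.01 M body counts. Their edge ratio was 8.57 per 100 body counts, below the 9.87 of the lanes used from that library and above the 7.98 to 8.07 of wild type. They are given because they hold footprints outside the libraries compared; they are truncated, and the ratio describes the genes they cover.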

How the results depend on the processing

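The library footprint ratio (log2 0.20) kept its direction in 13 alternatives. Among them were all lanes, the second run alone and leaving out the 10 genes with most edge counts. An exact permutation p of 3 against 3 libraries cannot fall below 0.1, so it cannot tell whether the difference held in these alternatives. The RNA library ratio lay between -0.00896 without mutant replicate 1 (reversed) and 0.0566 without mutant replicate 2. Footprint calls came to 444 with libraries thinned to equal depth and to 99 to 913 with 1 library left out. RNA calls came to 0 with DESeq2, limma-voom, GC offsets, the longest coding sequence, a mean of at least 50 edge counts, the second run alone, the shared offset and thinning, and to 0 to 3 with 1 library left out. Calls beyond RNA came to 68 with limma-voom, 31 with the second run alone, 28 with thinning, and 3 to 91 with 1 library left out. The causes of these moves were not tested.

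The labels do not say whether equal numbers pair mutant with wild-type pools, and deviations of equal-numbered libraries correlated at -0.03 to 0.02, and libraries did not all correlate best with their own number. With the number as a replicate block, footprint calls came to 584, RNA calls to 3 and calls beyond RNA to 107; with a block for the pool, whose 2 tubes hold the same cells, calls beyond RNA came to 202; the library footprint difference had an exact sign-flip p of 0.25, the smallest that 3 pairs allow.

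Uncalled genes changed sign as follows (log2). Footprints: Gli3 -0.00291 with the second run alone, -0.14 with thinning and -0.18 to 0.27 with 1 library left out; Igfbp5 0.0504 with the shared offset and -0.33 to 0.14; Shh -0.12 with thinning. RNA: Gli2 0.12 with thinning and -0.29 to 0.10; Atf4 0.0537 with thinning and -0.13 to 0.0793. Beyond RNA: Shh 0.0286 with the shared offset and -0.48 to 0.0575; Gli2 -0.73 to 0.12; Igfbp5 -0.0463 to 0.54. The block for the pool, GC offsets, separate scaling of edge and body, and restriction to complete, unshared ends were chosen after seeing the data. Depth limits genes with few mutant edge footprints.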
